A study of Mus musculus with 6 samples.

Results

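A set of oligoadenylate synthetase genes in mouse bone marrow-derived macrophages (BMDMs) was followed through stimulation with lipopolysaccharide (LPS). They were Oas1a, Oas1g, Oas2, Oas3, Oasl1 and Oasl2, taken by gene symbol, and they made up 6 of the 24752 genes of the deposited table. All 6 passed the filter on low values.

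Oligoadenylate synthetases bind double-stranded RNA, a sign of virus in the cytosol, and then join ATP into short oligoadenylates. These second messengers set off the decay of RNA of both virus and host, which stops translation. The genes are classical targets of type I interferon, so that they are low in resting macrophages and are induced by LPS mainly through interferon beta. Within the family, Oas1a and Oas1g are small synthetases, Oas2 and Oas3 hold repeats of the synthetase unit, and Oasl1 and Oasl2 carry ubiquitin-like domains. In mouse, Oasl1 lacks synthetase activity and is known to hold back translation of Irf7 mRNA, while Oasl2 is known to make oligoadenylates.

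Precursors from the bone marrow of mice aged 8 to 10 weeks were differentiated for 7 days and cultured with M-CSF at 10 ng/ml. The 6 libraries formed 3 groups of 2 (replicates B and C), which were control, LPS (100 ng/ml for 3 h) and Glul_LPS, the same LPS exposure in cells labelled as overexpressing Glul, the glutamine synthetase gene, from a lentiviral vector applied 36 h earlier. Whether the control and LPS cells received any vector is not labelled, and cells with the Glul vector and no LPS were not analysed here. The labels tie no replicate to an animal or culture of its own. Each p-value therefore measures the spread between these libraries alone, and that spread may be technical. Pairs of values below are for replicate B and then C. Glul itself, the check of the label, read 140 and 140 FPKM in control, 30.6 and 33.4 with LPS, and 37.2 and 37.7 in the libraries labelled Glul_LPS. The last group was above LPS in both libraries, but the change of 0.22 on the log2 scale did not pass the threshold, a Benjamini-Hochberg adjusted p under 0.05 in limma (adjusted p = 0.122).

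Levels are FPKM, fragments per kilobase of exon scaled to the size of the library, and changes are differences of log2(FPKM + 1) with their standard error (SE). Library totals recovered from the table ran from 15649764 to 18691669 fragments, and the members rested on 260 to 20199 fragments per library. All 8 macrophage markers of a fixed list, among them Csf1r and Adgre1, averaged at least 1 FPKM over the libraries. Their summed level was 20586 to 21169 FPKM in control, 15109 to 16254 in LPS and 17623 to 18874 in Glul_LPS. That sum was led by Lyz2, which averaged 15987 FPKM over all libraries. In such bulk samples, fewer cells of a type and less RNA per cell cannot be told apart.

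All 6 genes lay on chromosome 5 (GRCm38, positions of the deposited table), in 2 groups. Oas2 (120730333 to 120749853), Oas3 (120753098 to 120777661), Oas1g (120876142 to 120887613) and Oas1a (120896256 to 120907521) were on the minus strand. Oasl2 (114896936 to 114912234) and Oasl1 (114923240 to 114937915) lay side by side on the plus strand. GENCODE M21 gave all 6 as protein-coding, with 6 (Oasl1) to 14 (Oas3) blocks of exons. Oas1a and Oas1g are near copies. Of the stretches of 50 bases in Oas1a transcripts, 57.6% were also present in transcripts of another gene, nearly all Oas1g, against 45.7% for Oas1g, 0.521% for Oas3, 0.138% for Oasl2 and 0 for Oas2 and Oasl1. How the authors' counting treated shared fragments is not given in the sources used here, so the split between Oas1a and Oas1g is uncertain.

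Since these genes moved together with LPS, the 150 bases before the RefSeq start (GRCm38.p6) are shown for the 5 members with an entry in the promoter table, written 5′ to 3′ on the gene's strand, with matches to the core of the interferon-stimulated response element, the letters GAAA, any 2 bases and GAAA again, in capitals. The search covered the whole promoter window of the RefSeq table, which also runs a short way past the start, on both strands.
Oas1a, chr5:120907526-120907675, minus strand: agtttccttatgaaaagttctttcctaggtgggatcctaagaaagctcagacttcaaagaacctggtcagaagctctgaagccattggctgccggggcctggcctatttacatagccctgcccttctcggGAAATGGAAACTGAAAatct
Oas1g, chr5:120887614-120887763, minus strand: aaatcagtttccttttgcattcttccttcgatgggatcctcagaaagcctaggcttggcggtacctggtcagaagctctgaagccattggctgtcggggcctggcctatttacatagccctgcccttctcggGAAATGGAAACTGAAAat
Oas3, chr5:120777660-120777809, minus strand: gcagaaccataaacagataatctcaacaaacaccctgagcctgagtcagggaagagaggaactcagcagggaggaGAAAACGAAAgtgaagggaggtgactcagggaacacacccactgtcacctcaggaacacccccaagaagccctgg
Oasl1, chr5:114923090-114923239, plus strand: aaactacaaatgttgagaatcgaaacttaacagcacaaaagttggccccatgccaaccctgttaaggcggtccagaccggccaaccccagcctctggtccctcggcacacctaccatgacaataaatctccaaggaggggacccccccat
Oasl2, chr5:114896784-114896933, plus strand: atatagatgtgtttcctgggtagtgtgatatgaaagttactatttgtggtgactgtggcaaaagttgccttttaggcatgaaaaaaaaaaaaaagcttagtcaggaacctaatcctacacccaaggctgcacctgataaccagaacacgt
Oas1a and Oas1g held the same run of 16 bases, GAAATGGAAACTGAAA, which is made of 2 overlapping matches and lay 20 to 5 bases before the start in Oas1a and 18 to 3 bases before it in Oas1g. Their windows were 83.2% identical, against 45.7% to 50.6% for every other pair. Oas3 held 1 match, 75 to 66 bases before its start. No match was present in the searched window of Oasl1 or Oasl2, and of 32851 promoters of the same length 3.44% held one. The core of the gamma-activated site, TTCNNNGAA, which reads the same on both strands, was present in Oas1a, 98 to 90 bases before the start and apart from the other matches, in none of the other 4 windows, and in 8.30% of all promoters. Of the further Oas1 genes, Oas1c held the same run of 16 bases on the opposite strand, 114 to 99 bases before its start. Oas1h held neither core. These are matches of letters, and binding was not measured.

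LPS with control asked how LPS changed the family. All 6 genes rose, where 17.1% of the 10962 genes tested did, and the median change of the 6 was 2.91 on the log2 scale against −0.50 for all tested genes. Because the median gene was lower in LPS (68% of tested genes fell), each change was also computed after every library was centred on its median gene, and all 6 rose on that scale as well (34.6% of tested genes did). Marker lists of other cells moved as well. The mast cell list, of which only Hdc averaged at least 1 FPKM, summed to 0.439 to 0.486 FPKM in control and 6.65 to 7.19 in LPS. The megakaryocyte list, led by Pf4, summed to 35.4 to 39.7 and 22.98 to 23.98 FPKM. The neutrophil list summed to 52.8 to 54.1 FPKM in control and 60.8 to 65.3 in LPS. The plasmacytoid dendritic cell list summed to 269 to 285 and 337 to 359 FPKM, and was led by Bst2, an interferon target that averaged 338 FPKM over all libraries. The stromal list summed to 2.97 to 3.63 and 4.75 to 5.84 FPKM. The T cell list was lower with LPS, at 12.6 to 14.7 against 11.3 to 11.4 FPKM, as was the B cell list, at 19.2 to 22.8 against 18.0 to 18.3 FPKM. The dendritic cell list overlapped, at 38.9 to 43.3 and 36.7 to 39.0 FPKM. Natural killer cell and erythroid markers stayed under 1 FPKM in sum, with Hbb-bs at 0 throughout. Their part in the rise was not tested.

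Oasl1 moved furthest. It stood at 6.42 and 5.75 FPKM in control, at 442 and 453 FPKM with LPS, and at 340 and 322 FPKM in Glul_LPS. The LPS libraries were thus far above both controls, with the Glul_LPS libraries between, and none of the groups overlapped. The change with LPS was 5.98 (SE 0.06, adjusted p = 2.84e-08), and the mean rose 73.5-fold, from 6.09 ± 0.473 to 447 ± 8.05 FPKM (SD, n = 2 each). The gene was the lowest of the 6 in control and the highest in LPS.

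Its neighbour Oasl2 stood at 18.0 and 15.8 FPKM in control, 170 and 159 FPKM with LPS, and 127 and 130 FPKM in Glul_LPS. Again the 3 groups did not overlap, with LPS highest. The rise with LPS was 9.75-fold (log2 change 3.21, SE 0.07, adjusted p = 3.78e-07).

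Of the small synthetases, Oas1a was the most abundant member in control, at 32.0 and 30.0 FPKM. It reached 155 and 148 FPKM with LPS and 138 and 144 FPKM in Glul_LPS. Both treated groups lay well above control and close to each other, and the rise with LPS was 4.89-fold (log2 change 2.25, SE 0.05, adjusted p = 5.12e-07). Oas1g had 9.10 and 7.54 FPKM in control, 78.1 and 76.3 FPKM with LPS, and 64.3 and 69.3 FPKM in Glul_LPS. It rose 9.28-fold with LPS (log2 change 3.07, SE 0.09, adjusted p = 8.20e-07). The sum of the Oas1a and Oas1g levels, which still depends on the split because each gene is divided by its own exon length, was 39.3 ± 2.57 FPKM in control, 229 ± 6.54 in LPS and 208 ± 7.44 in Glul_LPS (SD, n = 2 each).

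Among the larger synthetases, Oas2 stood at 13.6 and 12.6 FPKM in control, 95.5 and 91.9 FPKM with LPS, and 77.6 and 82.9 FPKM in Glul_LPS. Its rise with LPS was 7.15-fold (log2 change 2.75, SE 0.06, adjusted p = 3.78e-07), and no group overlapped another. Oas3 stood at 15.1 and 12.2 FPKM in control, 70.0 and 64.3 FPKM with LPS, and 57.0 and 65.1 FPKM in Glul_LPS. The treated groups overlapped each other but not control, and the rise with LPS was 4.93-fold (log2 change 2.23, SE 0.11, adjusted p = 7.43e-06). The replicates of Oas3 lay farther apart than those of the other 5 in each group, by 21.3% of their mean in control, 8.56% in LPS and 13.3% in Glul_LPS.

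**Figure D1:**
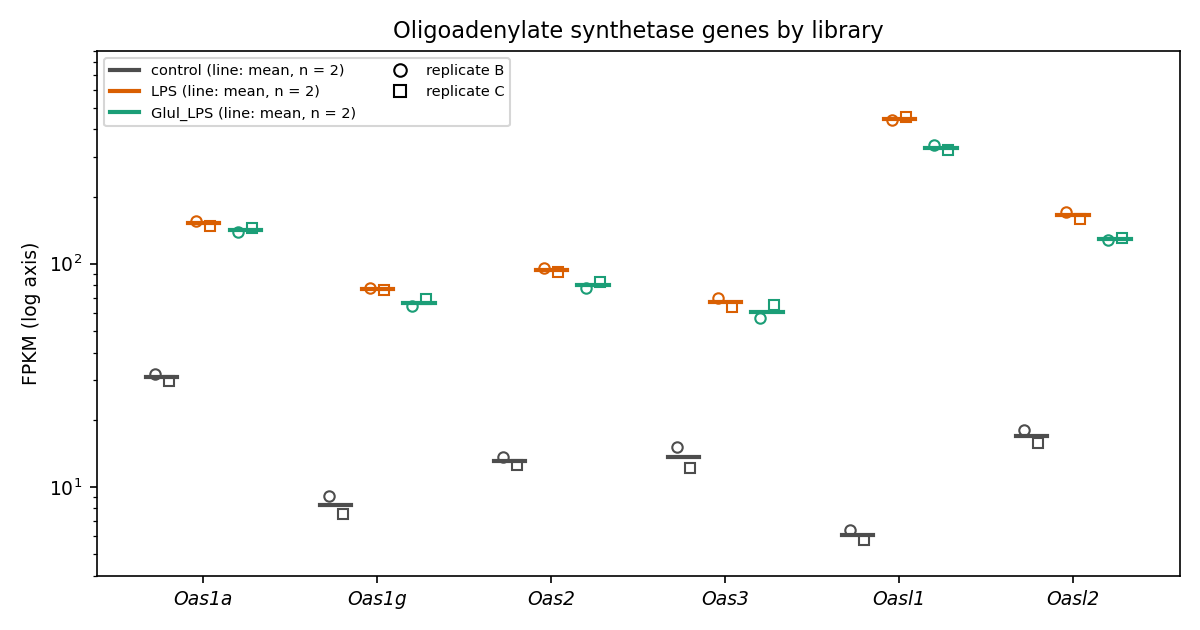
FPKM on a log axis for the 6 genes in each library (circles, replicate B, squares, replicate C) with group means as lines (n = 2). All 6 genes were higher in both LPS groups than in control, with Oasl1 going from the lowest, 6.09 FPKM, to the highest, 447 FPKM.

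The order of levels, per length, therefore changed with LPS. In control it ran Oas1a (31.0 FPKM), Oasl2 (16.9), Oas3 (13.6), Oas2 (13.1), Oas1g (8.32) and Oasl1 (6.09), and only the libraries of the neighbours Oas3 and Oas2 overlapped. In LPS it ran Oasl1 (447 FPKM), Oasl2 (165), Oas1a (151), Oas2 (93.7), Oas1g (77.2) and Oas3 (67.1), with no overlap between neighbours. In Glul_LPS, Oas1a (141 FPKM) stood above Oasl2 (128), the reverse of LPS, and Oas1g (66.8) and Oas3 (61.0) overlapped. That exchange of places was not tested, and the places of Oas1a and Oas1g rest on their uncertain split.

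The summed level of the 6 genes was 94.3 and 83.8 FPKM in control, 1011 and 992 FPKM with LPS, and 804 and 813 FPKM in Glul_LPS. Oasl1 supplied 6.84% ± 0.0359 of that sum in control, 44.7% ± 1.41 in LPS and 40.9% ± 1.88 in Glul_LPS (SD, n = 2 each). The share of Oas1a was 34.9% ± 1.24 in control, 15.1% ± 0.320 in LPS and 17.5% ± 0.355 in Glul_LPS. The largest share thus passed from Oas1a in control to Oasl1 in LPS, with the Oas1a share subject to its uncertain split from Oas1g. Oasl2 held a steadier share, 19.0% ± 0.149 in control, 16.4% ± 0.615 in LPS and 15.9% ± 0.110 in Glul_LPS.

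**Figure D2:**
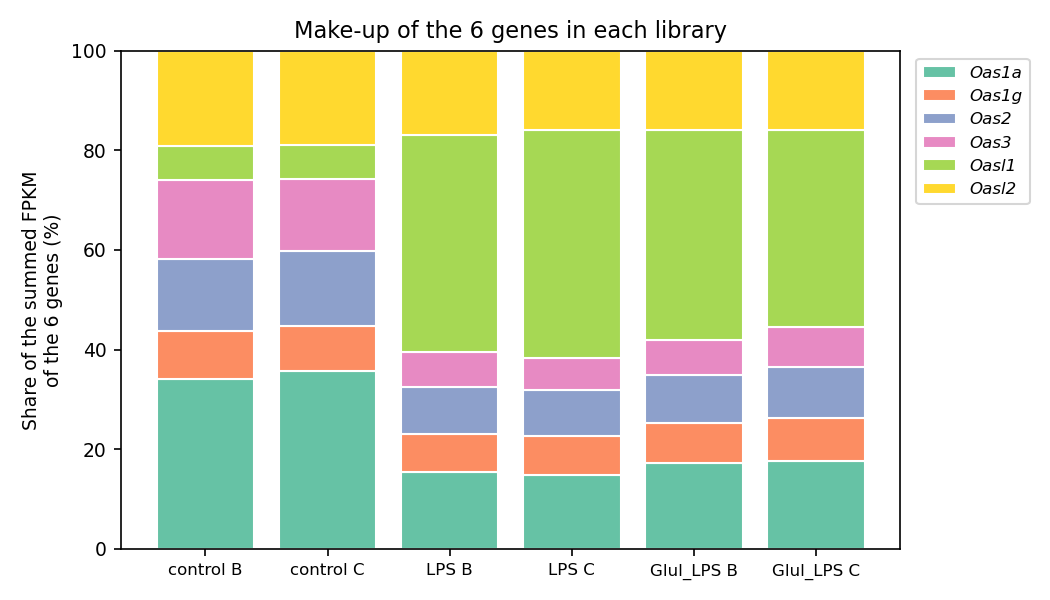
Stacked bars of the share of each gene in the summed FPKM of the 6 genes, in percent, for each library. Oasl1 filled 6.84% of the bar on average in control and 44.7% in LPS, and Oas1a 34.9% and 15.1%. The Oas1a share rests on its uncertain split from Oas1g.

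Set against the mean of the other 5 genes in the same library, Oasl1 was 1.21 and 1.17 log2 units lower in control, and 2.04 and 2.15 units higher with LPS. In Glul_LPS it was 1.95 and 1.78 units higher. The groups did not overlap. The difference between LPS and control was 3.28 and that between Glul_LPS and LPS was −0.23. For both, the exact two-sided permutation test gave p = 0.333, the smallest value that 2 libraries against 2 allow. That value is fixed once the groups do not overlap. Oasl1 had the largest change of all members in both comparisons in these same libraries, so its separation is partly built into the choice of gene.

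Glul_LPS with LPS asked whether cells labelled as overexpressing Glul had another level of these genes under the same LPS exposure. All 6 lay below 0, with a median of −0.21 against 0.02 for all tested genes. Of the 6, 1 fell, Oasl1, where 0.556% of the genes tested did. Its mean went from 447 ± 8.05 to 331 ± 12.7 FPKM, a log2 change of −0.43 (SE 0.06, adjusted p = 0.0378), with both Glul_LPS libraries below both LPS libraries. This call sat close to the threshold. It was lost in 10 of 15 alternatives, over which the adjusted p ran from 6.80e-05 to 0.176 and the change from −0.49 to −0.40. Leaving out any single library, controls included, ended it, with an adjusted p between 0.0618 (without control C) and 0.176 (without LPS B).

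The other 5 did not pass. Oasl2 came nearest, at 128 ± 1.87 against 165 ± 8.38 FPKM in LPS (log2 change −0.35, 95% interval −0.53 to −0.18, adjusted p = 0.0834). Oas2 had a change of −0.22 (−0.37 to −0.07, adjusted p = 0.152) and Oas1g one of −0.21 (−0.42 to 0.00, adjusted p = 0.290). Both Glul_LPS libraries were below both LPS libraries for these 3 genes and for Oas1a, whose change was −0.10 (−0.23 to 0.03, adjusted p = 0.412). For Oas3 the libraries overlapped and the change was −0.14 (−0.41 to 0.13, adjusted p = 0.591). Groups that did not overlap, with Glul_LPS lower, thus numbered 5 of the 6 genes and 19.3% of all tested genes. In limma voom on recovered fragments, 3 of the 6 passed, namely Oasl1, Oasl2 (adjusted p = 0.00126) and Oas2 (adjusted p = 0.0304), on a scale where 548 of 9579 genes passed in all.

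**Figure D3:**
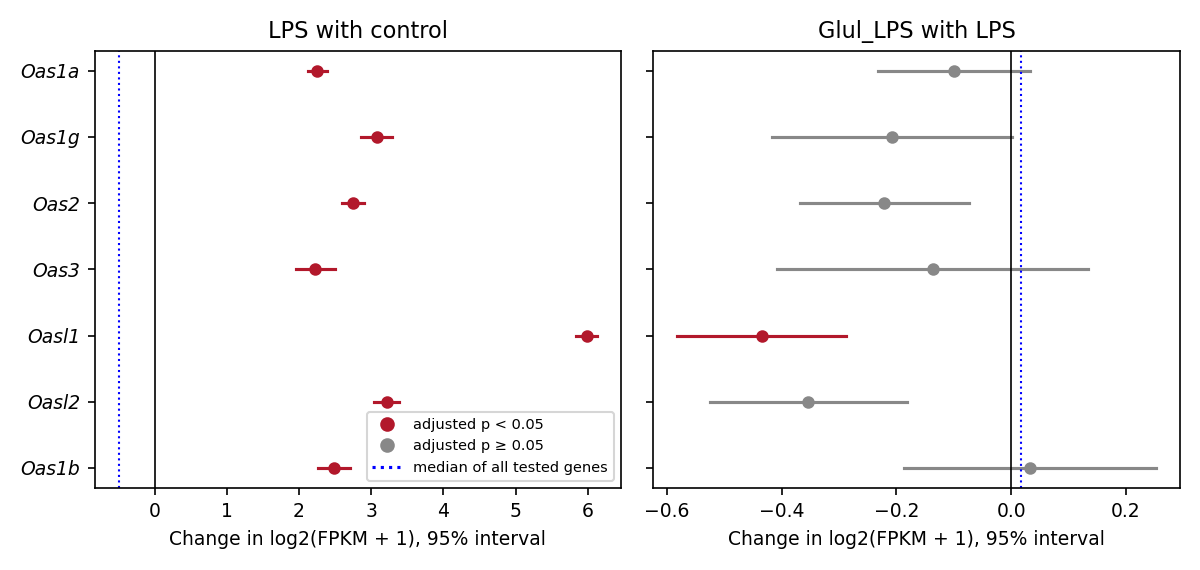
Changes in log2(FPKM + 1) with 95% intervals for the 6 genes and Oas1b in LPS with control (left) and Glul_LPS with LPS (right), with genes past the threshold in red and the median of all tested genes as a dotted line. The 6 genes rose by 2.23 to 5.98 with LPS, and all 6 lay below 0 on the right, with Oasl1 past the threshold at −0.43.

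Expressed as the part of the increase over control that was still present, mean levels in Glul_LPS held 73.6% of the LPS increase for Oasl1, 75.6% for Oasl2, 83.3% for Oas2, 84.9% for Oas1g, 88.6% for Oas3 and 91.5% for Oas1a. These shares used the same control and LPS libraries for every gene and are given without a test. In Glul_LPS with control, which shares its libraries with the other comparisons, all 6 genes rose (16.9% of tested genes did), by 2.09 for Oas3 to 5.55 for Oasl1.

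Levels of other cell type markers also differed between these groups. The dendritic cell list, of which only Itgax averaged at least 1 FPKM and no member was at 0 in every library, summed to 36.7 to 39.0 FPKM in LPS and 18.3 to 23.4 in Glul_LPS. The B cell list, led by Ighm, summed to 18.0 to 18.3 FPKM in LPS and 13.0 to 14.1 in Glul_LPS, and the neutrophil list, led by Csf3r, to 60.8 to 65.3 and 66.0 to 70.5 FPKM. The plasmacytoid dendritic cell list, led by Bst2, an interferon target that is also on the effector list, summed to 337 to 359 and 384 to 429 FPKM, and the stromal list to 4.75 to 5.84 and 6.32 to 7.87 FPKM. The megakaryocyte list summed to 22.98 to 23.98 FPKM in LPS and 26.7 to 27.3 in Glul_LPS, and the T cell list to 11.3 to 11.4 and 11.7 to 14.3 FPKM. The macrophage list, given above, was higher in Glul_LPS as well, and the mast cell list overlapped. The part of these lists in the lower Oasl1 level was not tested.

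Genes that limit the oligoadenylate pathway were measured beside the synthetases. Of 3 such genes on a fixed list, 2 fell with LPS as deposited, where 68% of all tested genes did. Relative to the median gene 2 of the 3 were higher, where 34.6% of all tested genes were. With no filter 1 of the 3 fell, and after quantile normalization 0 fell and 1 rose. Akap7, whose mouse product can degrade oligoadenylates, fell with LPS from 2.64 ± 0.374 to 1.42 ± 0.183 FPKM (log2 change −0.59, adjusted p = 0.00320), and relative to the median gene it did not pass (−0.07, adjusted p = 0.627). Abce1, first described as an inhibitor of this pathway, fell from 9.28 ± 0.0219 to 7.65 ± 0.453 FPKM (−0.25, adjusted p = 0.0235), and it was higher relative to the median gene (0.27, adjusted p = 0.0231). Pde12, a phosphodiesterase that removes oligoadenylates, had 2.39 ± 0.102 and 2.05 ± 0.197 FPKM (−0.16, adjusted p = 0.112), and it too was higher relative to the median gene (0.36, adjusted p = 0.00866). In Glul_LPS with LPS, 0 of these 3 genes passed in limma, 0 in limma voom and 0 at an unadjusted p under 0.05. Of the falls with LPS, 1 of 2 was left without control B, control C or LPS C.

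Of the further Oas1 genes, Oas1b, Oas1c, Oas1d, Oas1e and Oas1h were in the table and 2 passed the filter. Oas1b, the flavivirus resistance gene, which is annotated as a polymorphic pseudogene because many laboratory strains carry a truncated form, had 2.20 and 2.61 FPKM in control, 18.6 and 17.4 FPKM with LPS, and 17.3 and 19.7 FPKM in Glul_LPS. It rose with LPS (log2 change 2.48, adjusted p = 2.22e-06), within the range of the members, and its Glul_LPS and LPS libraries overlapped (0.03, adjusted p = 0.899). Oas1c, which averaged 1.52 ± 0.195 FPKM in control and 1.99 ± 0.0748 in LPS, rose by 0.25 (adjusted p = 0.0288), a call lost in limma voom and without control B, LPS B or LPS C. Oas1h was at 0 and 0.136 FPKM in control and 0.620 and 0.618 FPKM with LPS, from at most 18 fragments. Oas1d and Oas1e had at most 2 fragments in any library.

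Genes next to the members moved in both directions. Within 100 kb of a member the table held 21 other genes, of which 9 passed the filter. Of these 9, 4 rose and 5 fell with LPS, where 17.1% of all tested genes rose and 68% fell. In Glul_LPS with LPS, 0 passed in limma (1 at an unadjusted p under 0.05, and 0 in voom), where 121 of all 10962 tested genes did. Relative to the median gene, the same 4 rose with LPS and 3 fell, beside 3788 and 3530 of all 10962 tested genes. The 4 that rose were Oas1b, Oas1c, and 2 RNAs that overlap members. Gm13822, an antisense RNA at the start of Oasl1, was under 1 FPKM in both control libraries and at 7.90 and 7.77 FPKM with LPS (log2 change 2.66, adjusted p = 9.49e-06). Gm43068, which lies inside Oas2 on the opposite strand, had 0.0841 and 0.0906 FPKM in control and 1.85 and 1.88 FPKM with LPS. It rose by 1.40 (adjusted p = 2.68e-05). Both RNAs passed the filter only through LPS and Glul_LPS libraries, so the filter itself favoured a rise in them. Exons of Gm13822 and Oasl1 share 38 bases, 1.46% of the exon bases of Oasl1. Without a stated strand setting, reads from the 2 strands cannot be told apart there or over Gm43068. The 5 that fell lay around Oasl1 and Oasl2. Among them, Sppl3 (−0.77) also fell relative to the median gene, and Ankrd13a (−0.58) did not pass there.

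**Figure D4:**
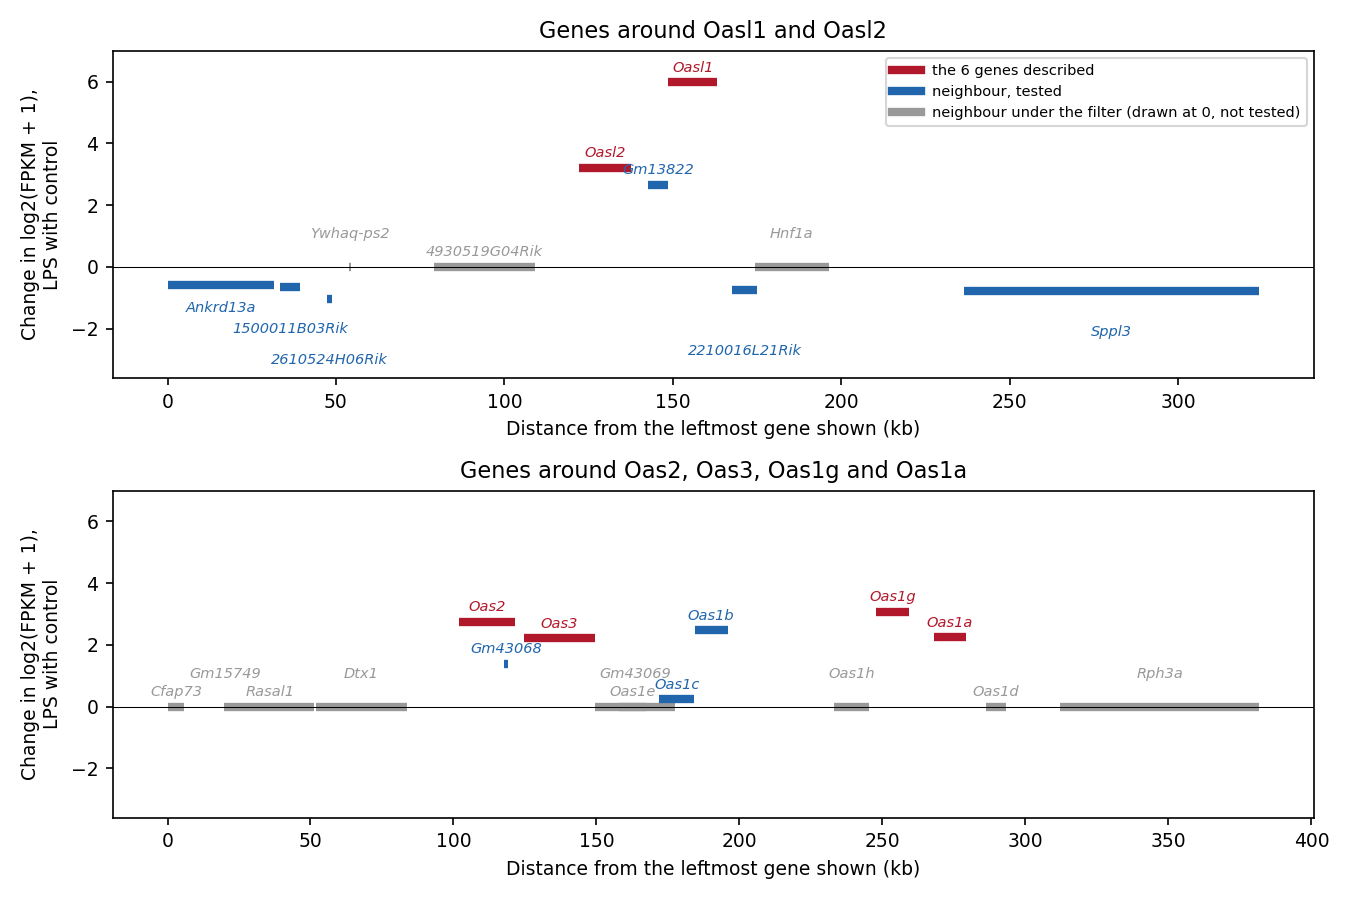
Change in log2(FPKM + 1) with LPS for the 6 genes (red) and every other gene of the table within 100 kb (blue, tested, grey, under the filter and drawn at 0), against distance in kb from the leftmost gene shown. The 6 genes stand between 2.23 and 5.98, and the tested genes flanking Oasl1 and Oasl2, other than Gm13822, lie below 0. Of all tested genes, 68% fell with LPS.

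The rest of the interferon pathway was read from fixed lists, chosen with earlier results of these data known. With LPS, 17.1% of all tested genes rose and 68% fell, with a median of −0.50. Of 12 genes of interferon signalling, 10 rose and 1 fell with LPS, with a median of 1.46. Those with the largest changes were the feedback inhibitors Socs1 (7.04) and Usp18 (5.01), Ifnb1 (3.55), which encodes interferon beta, and the transcription factor Irf1 (3.21). Ifnb1 had 0.357 and 0.462 FPKM in control, from 5 and 6 fragments, and 14.6 and 16.5 FPKM with LPS. It passed the filter only through LPS and Glul_LPS libraries, so the filter itself favoured a rise in this gene. Stat2 (2.67) and Irf9 (1.07), whose products are parts of the factor that binds the response element above, rose, and Irf3 fell by 0.86. In Glul_LPS with LPS, 1 of the 12 fell, Ifnb1, at 5.60 ± 1.17 against 15.5 ± 1.33 FPKM (log2 change −1.33, adjusted p = 0.0207), a call lost without LPS B, LPS C or Glul_LPS C and with no filter. At an unadjusted p under 0.05 there were 3 of the 12, and in voom 2 of the 10 tested fell, where 269 of all 9579 genes did. Irf1 was lower in both Glul_LPS libraries than in both LPS libraries and did not pass (−0.31, adjusted p = 0.109). Stat2 (−0.01), Irf9 (−0.19) and Irf7 (−0.07), whose mRNA is the target of mouse Oasl1, did not pass.

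Of 9 genes that sense or answer double-stranded RNA, 8 rose and 1 fell with LPS, where 17.1% and 68% of all tested genes did. The median of the 9 was 2.43, close to the 2.91 of the synthetases. The sensor Ifih1 (4.35), the nucleic acid sensor Zbp1 (3.26), the sensor Ddx58 (2.88) and the kinase Eif2ak2 (2.82) rose, and the adaptor Mavs fell by 1.94. In Glul_LPS with LPS, 0 of the 9 passed in limma (median −0.12), against 1 at an unadjusted p under 0.05 and 1 in voom. All 20 antiviral effector genes rose with LPS (median 3.63), where 17.1% of all tested genes did. In Glul_LPS with LPS 19 of them lay below 0 (median −0.13, against 0.02 for all tested genes) and 0 passed in limma. At an unadjusted p under 0.05 there were 10. In voom, 6 of the 19 tested were lower and 1 higher, where 269 and 279 of all 9579 genes were. The 16 effectors with groups that did not overlap, Glul_LPS lower, and the 5 of the 6 synthetases stand beside the 19.3% of all tested genes. The share of all genes at an unadjusted p under 0.05 is not given here. Counts at that level are therefore not read as results about any list.

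The genes whose pattern over the 6 libraries came closest to the mean pattern of the 6 synthetases were found among 6497 candidates, by the root mean square distance of centred log2 values. They were Phf11b (0.04), Parp14 (0.05), an ADP-ribosyltransferase, Zbp1 (0.05), Slfn3 (0.06) and Car13 (0.07), a carbonic anhydrase. Phf11b, for example, had 17.0 and 15.6 FPKM in control, 178 and 160 FPKM with LPS, and 139 and 140 FPKM in Glul_LPS. Of the members, only Oasl2 (0.07) and Oas1g (0.08) lay about as near to that mean. Oas2 (0.23), Oas1a (0.44) and Oas3 (0.46) lay farther from it, and Oasl1 (1.25) farthest.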

How the data were processed

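RNA-seq libraries of 6 BMDM samples were prepared with a NEBNext Ultra kit on an Illumina HiSeq system, per the labels' protocols. The authors deposited FPKM values for 24752 genes. CASAVA, HISAT2 2.1.0, HTSeq 0.6.0, DESeq2 and GRCm38 are named in the submitters' processing notes, with no role or order, and those notes give neither annotation nor strand setting. A further 6 columns of per-sample values matched no listed sample and were not used.

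FPKM times exon length (GENCODE M21, 24703 gene IDs found) gave whole fragments, within 0.01, in all libraries for 22655 genes. The filter kept 10962 genes that reached 1 FPKM in 2 or more libraries. They were compared as log2(FPKM + 1) in a joint limma fit of all 3 groups (limma 3.58.1, R 4.3.3, two-sided, with a trend of variance on level and 6.27 degrees of freedom). Benjamini-Hochberg adjustment ran over all tested genes, with a threshold of 0.05. The fit was also run on simulated data with the same spread setting for every gene and no overall shift, which cannot show how it behaves on these data. "Rose" and "fell" mean past that threshold. Promoters were taken from RefSeq (GRCm38.p6). The members, gene lists, motifs and alternatives were chosen with earlier results of these data known. Some listed genes are not reported here and were left out of the list counts. Named genes were the 6 members, Glul, genes of the lists, neighbours within 100 kb and the 5 nearest patterns among genes with at least 5 FPKM in 2 libraries, leaving out predicted genes. Alternatives covered the pseudocount, filter, scaling, samples fitted, replicate block, limma voom and leaving out each library. The p-values with 2 libraries a group rest on a spread shared across genes.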

Additional observations from a re-analysis of the deposited data

How the results depend on the processing

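All 6 members kept their rise past the threshold in LPS with control and in Glul_LPS with control under each of the 15 alternatives, and no member changed direction in any comparison. In Glul_LPS with LPS the count of members past the threshold, 1 as reported, was 0 with a pseudocount of 0.1, with no filter, in a fit of the 2 groups compared and with the replicate block, 3 in voom, and 0 to 0 over the fits without 1 library. The count of all genes past it, 121, was 9 with no filter, 59 in the fit of 2 groups, 548 in voom and 1 to 57 without 1 library. The cause of these moves was not tested, beyond the fewer libraries or more genes that an alternative holds by construction. For Oasl1 the adjusted p was 0.0514 (pseudocount 0.1), 0.150 (no filter), 0.0632 (2 groups) and 0.0578 (replicate block). Neighbours past the threshold in Glul_LPS with control numbered 5 after quantile normalization and 5 after median centring, against 9. Higher calls in LPS with control were 1879 of 9338 as deposited, 3044 of 7675 after quantile normalization and 3788 of 7318 after centring.

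No effect shared by replicate letter was seen across genes, which cannot show whether the libraries were paired by animal or culture. Differences of B minus C correlated at −0.0215, −0.000429 and −0.0474 between the 3 pairs of groups, and with the letter as a block 9293, 87 and 9203 genes passed in the 3 comparisons. The 5 nearest patterns were the same after median centring, which leaves their distances as they were by construction, and no other scaling was run for them. Shares within a library do not change with a factor common to all its genes.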
